A study of Mus musculus with 15 samples.

Results

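The comparison described here set the jejunal epithelium of wild-type CD1 mice against the ileal epithelium of a second set of adult mice, labelled only as control. Its members were the 3 arrays titled jejunum 1 to 3 and the 3 titled control ileum 1 to 3, which are 6 of the 15 arrays of the series. Wild-type CD1 ileum, on 3 further arrays, served to show which regional differences held against both ilea. The other groups, ileum with a conditional Gata4 knockin (cKI) and jejunum with a conditional Gata4 knockout (cKO), entered the statistical model for the estimate of spread. The labels give CD1 as the background of the wild-type mice, and neither strain nor genotype of the control mice, nor the driver of the cKI and cKO alleles. All samples were epithelial cells isolated from small intestine of adult mice, measured on Affymetrix Mouse Gene 1.0 arrays. The question was which genes differ between jejunum and ileum whichever ileum is used, and which differ against one ileum but not the other. Control ileum came from another set of mice than the jejunum. In that comparison region therefore cannot be told apart from the set of mice, with its strain, genotype and array set. A difference seen only against control ileum is not shown to be regional.

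The small intestine changes its work along its length. Jejunal enterocytes take up most sugars and fats, and the transcription factor GATA4 is made in the duodenum and jejunum but falls away in the ileum. Ileal enterocytes recover bile acids, which enter through the apical transporter Slc10a2, cross the cell on the carrier Fabp6 and leave through Slc51a and Slc51b, while the receptor FXR (Nr1h4) senses them and induces Fgf15.

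Values are deposited log2 levels, and differences are log2 wild-type jejunum minus ileum, ± the standard error of the linear model. A gene was called when limma gave it a p-value under 0.05 after Benjamini-Hochberg adjustment across all 11784 tested genes. Means below 4.91, the median of all deposited values, were treated as not told from background. Where only one mean of a comparison lay below it, the log2 difference is that of the deposited levels, its size is not reliable, and the fold is given as a lower bound counted from 4.91. Whether replicate arrays stand for separate mice is not stated in the labels, so a p-value here reflects array-to-array spread alone, which may be technical, and 3 arrays a group limit the precision. Over these genes, arrays of 1 group correlated at 0.9839 to 0.9891 in wild-type jejunum and at 0.9729 to 0.9833 in control ileum. Jejunal arrays correlated at 0.8958 to 0.9083 with control ileum and at 0.8991 to 0.9252 with wild-type ileum, and the 2 ilea at 0.9227 to 0.9559 with each other. The 2 ilea therefore differed from each other by more than arrays within either did. Control ileum replicate 2 stood apart from the other 2 control arrays for several defence and interferon genes. Where a gene's call against control ileum or a stated gap between the ilea depended on a single array, the value without it is given. Not every list count is followed in this way, nor are the differences of single genes from wild-type ileum.

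The labels of region held on the markers of each segment. Fabp6 was at 4.08, 4.93 and 4.18 in wild-type jejunum, against 12.40, 12.56 and 12.35 in control ileum and 12.86, 12.58 and 12.59 in wild-type ileum. Slc10a2 was at 5.07, 4.55 and 3.73 in wild-type jejunum, against 10.44, 9.89 and 10.12 in control ileum and 11.56, 11.04 and 11.21 in wild-type ileum. Both jejunal means lay below 4.91, while every ileal array was far above it, so that Fabp6 was at least 185-fold and Slc10a2 at least 37.8-fold lower in wild-type jejunum than in control ileum. Fabp1, the fatty acid carrier of proximal enterocytes, was at 12.23, 11.89 and 11.75 in wild-type jejunum, against 4.05, 5.79 and 5.57 in control ileum and 4.04, 3.51 and 3.74 in wild-type ileum. Lct, lactase, was at 12.04, 11.88 and 11.66 in wild-type jejunum, against 5.56, 6.95 and 5.47 in control ileum and 4.64, 4.85 and 4.69 in wild-type ileum. No jejunal array overlapped an ileal one for any of these 4 genes. Epcam and Cdh1, of epithelial cell adhesion, and Vil1, of the brush border, were chosen after their values were seen. They lay between 10.38 and 12.01 in wild-type jejunum, between 10.51 and 11.58 in control ileum and between 10.39 and 11.77 in wild-type ileum.

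The sequences around the start sites of these 4 markers show what sequence lies next to these regional differences. Each is 300 bases, 250 before and 50 after the RefSeq start of GRCm38.p6, on the strand of the gene. Capitals mark the GATA motif, taken as AGATAA on either strand, with AGATAG as a second form, TGATAA as a further form and TGATAG as the last. They also mark a partial HNF1 motif, taken as GTTAAT on either strand, which is only a part of the full HNF1 site. Fabp1 lies at chr6:71199629-71199928 (plus strand), Lct at chr1:128328269-128328568 (minus strand), Fabp6 at chr11:43601513-43601812 (minus strand) and Slc10a2 at chr8:5105238-5105537 (minus strand).
Fabp1: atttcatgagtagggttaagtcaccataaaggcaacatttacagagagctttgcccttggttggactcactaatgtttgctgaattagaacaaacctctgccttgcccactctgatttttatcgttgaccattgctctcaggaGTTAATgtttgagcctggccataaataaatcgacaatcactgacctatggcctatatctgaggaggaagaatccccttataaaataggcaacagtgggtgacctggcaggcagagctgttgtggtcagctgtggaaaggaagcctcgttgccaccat
Lct: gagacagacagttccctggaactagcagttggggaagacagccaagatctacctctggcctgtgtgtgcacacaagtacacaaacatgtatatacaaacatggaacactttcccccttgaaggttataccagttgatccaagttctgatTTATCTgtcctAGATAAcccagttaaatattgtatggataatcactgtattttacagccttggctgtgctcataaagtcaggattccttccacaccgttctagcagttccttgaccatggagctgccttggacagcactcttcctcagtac
Fabp6: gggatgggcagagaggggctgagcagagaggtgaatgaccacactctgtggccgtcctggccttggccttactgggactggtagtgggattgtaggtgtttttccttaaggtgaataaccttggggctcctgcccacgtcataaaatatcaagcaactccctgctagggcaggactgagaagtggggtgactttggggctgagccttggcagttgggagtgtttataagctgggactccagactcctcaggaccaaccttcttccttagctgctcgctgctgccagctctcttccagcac
Slc10a2: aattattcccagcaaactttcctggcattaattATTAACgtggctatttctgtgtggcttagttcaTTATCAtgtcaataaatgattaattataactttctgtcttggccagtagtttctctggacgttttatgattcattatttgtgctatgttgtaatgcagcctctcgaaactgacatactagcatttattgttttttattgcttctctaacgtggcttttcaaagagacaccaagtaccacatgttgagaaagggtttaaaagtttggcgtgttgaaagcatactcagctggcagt
Lct held GATA motifs that begin 101 and 90 bases before its start, and Fabp1 held none in this window but a partial HNF1 motif that begins 107 bases before its start. Slc10a2, an ileal gene, held 1 GATA motif at 184 bases and 1 partial HNF1 motif at 217 bases before its start, and Fabp6 held neither. These matches describe letters in the window and are no evidence of binding.

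**Figure D1:**
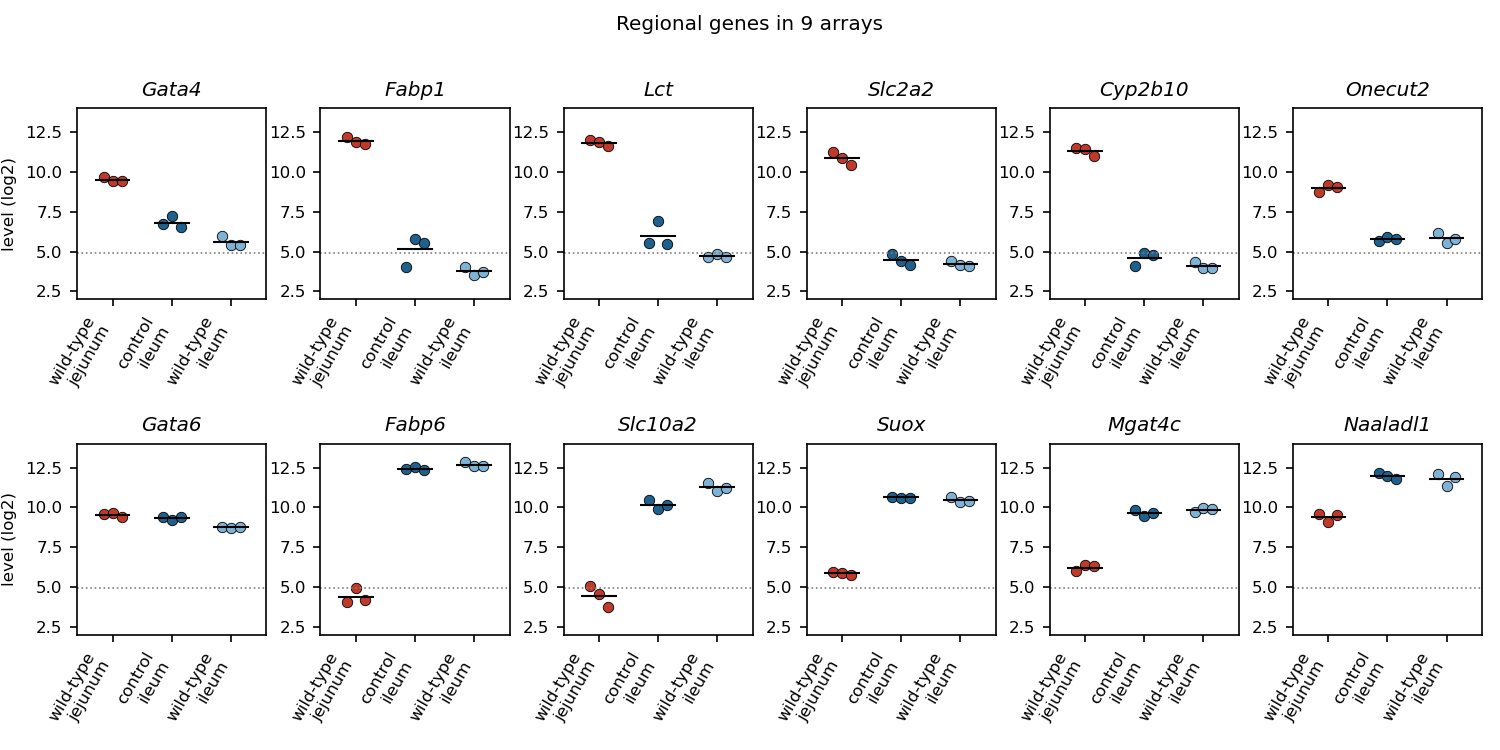
Log2 levels of 12 regional genes (vertical axis) on each of the 3 arrays of wild-type jejunum, control ileum and wild-type ileum. Points are arrays, short lines are group means, and the dotted line is the level of 4.91; Gata4 in control ileum sits between wild-type jejunum and wild-type ileum, whereas Onecut2 and Suox are at like levels in both ilea.

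Against control ileum, 2020 genes were called higher in wild-type jejunum (17.1% of those tested) and 2792 lower (23.7%). At a difference of 2-fold or more the counts were 532 higher (4.51%) and 491 lower (4.17%). Against wild-type ileum, 1575 genes were higher (13.4%) and 932 lower (7.91%), and 491 (4.17%) and 233 (1.98%) were so at 2-fold or more. The counts of gene lists below stand beside these shares of all genes. The median over all genes was -0.07 against control ileum and 0.0 against wild-type ileum. Of the genes called against control ileum 42.0% were higher in the jejunum, or 48.9% after quantile normalization and 51.7% after each array was centred on its median, so the balance of directions depended on the scaling.

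The 724 genes called at 2-fold or more against wild-type ileum (6.14% of those tested) were followed into the comparison with control ileum. Of the 491 that were higher in wild-type jejunum, 427 (87.0%) were called higher against control ileum too, 63 (12.8%) were not called and 1 was called lower. Of the 233 that were lower, 202 (86.7%) were called lower, 30 (12.9%) were not called and 1 was called higher. The same 3 jejunal arrays enter both comparisons, so these shares are not those of an independent repeat, and beside them 17.1% and 23.7% of all genes were called in the 2 directions. Without wild-type ileum replicate 2, the jejunum-high genes that were not called were 41. Since the jejunal arrays cancel between the comparisons, the direct comparison of control with wild-type ileum is the test of whether a regional difference depended on the ileum used. In it 27.9% of the genes were called, and 3.26% at 2-fold or more. At any size 2275 genes were higher in control ileum (19.3%) and 1015 lower (8.61%), and the share higher among the calls was 69.1%, or 47.9% after quantile normalization and 58.6% after centring. Of the 63 jejunum-high genes not called against control ileum, 47 were called higher in control than in wild-type ileum and 16 had no called gap. Of the 30 ileum-high genes not called, 18 were called lower in control than in wild-type ileum and 12 had no called gap. The gap is the difference between the 2 regional differences by which these genes were chosen. The choice thus favours a gap of this sign, and these counts are no separate support for it.

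**Figure D2:**
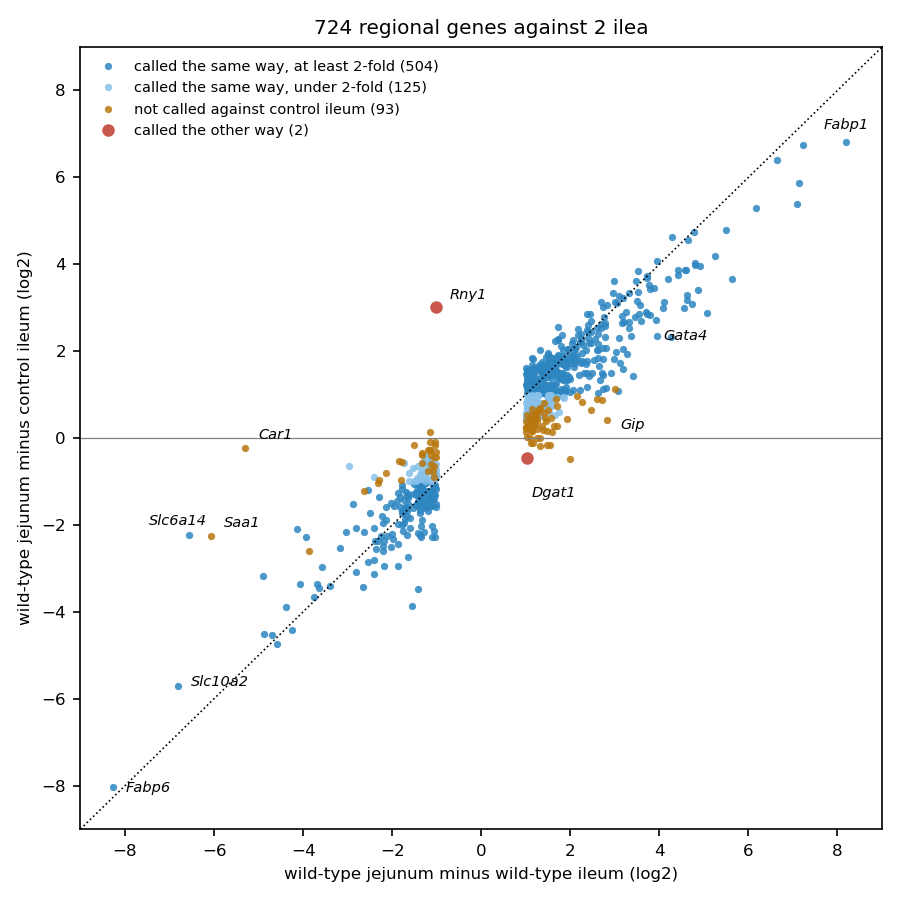
Log2 difference of wild-type jejunum minus control ileum (vertical axis) against that of wild-type jejunum minus wild-type ileum (horizontal axis) for the 724 genes called at 2-fold or more in the second. Each point is a gene, coloured by its call against control ileum, and the dotted line marks equal differences; most points lie near it, and Car1, Saa1, Gip, Dgat1 and Rny1 lie away from it.

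Genes of sugar handling were higher in the jejunum against both ilea. Of 18 tested genes of sugar digestion and transport, 16 were called higher and 1 lower against control ileum, and the same numbers were called against wild-type ileum, with median differences of 2.22 and 2.73. Slc2a2, the basolateral glucose carrier GLUT2, was at 11.27, 10.91 and 10.43 in wild-type jejunum and at 4.85, 4.44 and 4.15 in control ileum, a difference of 6.39 ± 0.481 (adjusted p = 2.11e-07) and at least 62.2-fold, since the control mean was below 4.91. Khk, which phosphorylates fructose, was at 10.38, 10.25 and 9.97 in wild-type jejunum and at 8.07, 8.32 and 8.07 in control ileum, a 4.13-fold difference (2.05 ± 0.197, adjusted p = 2.24e-06). Both were separated from the ilea on every array, and neither differed between the ilea by a called amount (adjusted p = 0.742 and 0.875). Slc2a7, another hexose carrier, differed by 3.36 ± 0.295 against control ileum (at least 8.75-fold) and by 3.51 against wild-type ileum. Lct differed by 5.87 ± 0.596 (adjusted p = 3.62e-06) and by 7.13. Fbp1, of gluconeogenesis, was higher by 1.82 ± 0.17 against control ileum and by 2.73 against wild-type ileum, and this gap between the ilea of 0.91 was called (adjusted p = 0.00127).

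Genes of fat uptake and fatty acid oxidation were likewise higher in the jejunum in most cases. Of 26 lipid absorption genes, 18 were called higher and 2 lower against control ileum (median 0.94), and 23 higher and 0 lower against wild-type ileum (median 1.04). The 2 called lower, Dgat1 and Pnliprp2, follow after the oxidation genes. Fabp1 differed by 6.82 ± 0.645 (adjusted p = 1.88e-06). Cd36, a fatty acid translocase, was at 8.74, 8.91 and 8.26 in wild-type jejunum and at 3.38, 4.74 and 3.44 in control ileum, a difference of 4.78 ± 0.365 (adjusted p = 2.37e-07) and at least 13.2-fold. Slc27a2, a very long chain acyl-CoA synthetase, was higher by 2.08 ± 0.156 and Scarb1, a lipoprotein receptor, by 1.85 ± 0.188. Of 21 genes of fatty acid oxidation and ketogenesis, 17 were called higher and 0 lower against control ileum, and 18 and 0 against wild-type ileum (medians 0.97 and 0.81). Pdk4, a kinase that spares glucose, was at 7.55, 8.09 and 6.96 in wild-type jejunum and at 3.47, 3.90 and 3.69 in control ileum, which is at least 6.15-fold. Acadvl, of mitochondrial oxidation, was higher by 1.62 ± 0.114 against control ileum and by 0.92 against wild-type ileum, and it was lower in control than in wild-type ileum by a called amount (-0.71, adjusted p = 0.000426).

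Dgat1 was called in opposite directions against the 2 ilea. Dgat1, which makes triglyceride from diacylglycerol, was at 10.36, 10.45 and 10.25 in wild-type jejunum, against 10.92, 10.85 and 10.68 in control ileum and 9.48, 9.11 and 9.40 in wild-type ileum. Wild-type jejunum thus lay below all control arrays and above all wild-type ileal arrays. It was called lower against control ileum (-0.46 ± 0.145, adjusted p = 0.0198) and higher against wild-type ileum (1.03, adjusted p = 0.000105), and it was higher in control than in wild-type ileum by 1.49 (adjusted p = 8.33e-06). The call against control ileum was lost without wild-type jejunum replicate 3 (adjusted p = 0.0675), control ileum replicate 1 (0.0657) or control ileum replicate 2 (0.054). Mogat2, the monoacylglycerol acyltransferase, was at 10.38, 10.27 and 10.06 in wild-type jejunum and at 9.94, 9.85 and 9.82 in control ileum. The arrays did not overlap, but the difference of 0.37 ± 0.191 was not called (adjusted p = 0.143), while that of 1.14 against wild-type ileum was. It was called against control ileum in the arrays of the compared groups alone (adjusted p = 0.0312), with array weights (0.0286) and with the replicate block in the 6 arrays (0.0492). Pnliprp2, a pancreatic lipase related protein, was lower in jejunum than in control ileum (-1.44 ± 0.329, adjusted p = 0.00299) and differed by -0.01 from wild-type ileum (adjusted p = 0.987).

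Many drug and retinoid enzymes were higher in the jejunum against both ilea. Cyp2b10, a xenobiotic-induced cytochrome P450, was at 11.49, 11.48 and 11.03 in wild-type jejunum, against 4.09, 4.90 and 4.81 in control ileum and 4.37, 3.97 and 3.97 in wild-type ileum, a difference from control ileum of 6.73 ± 0.33 (adjusted p = 2.54e-09) and at least 85.6-fold. Of 25 drug metabolism genes, 18 were called higher and 0 lower against control ileum, and 20 and 2 against wild-type ileum (medians 1.09 and 1.47). Of 14 genes of retinoid and alcohol metabolism, 8 were called higher and 0 lower against control ileum, and 9 and 2 against wild-type ileum (medians 1.71 and 1.89). Adh6a, an alcohol dehydrogenase, was at 11.52, 11.23 and 10.88 in wild-type jejunum, against 7.39, 8.47 and 6.78 in control ileum and 5.95, 5.24 and 5.56 in wild-type ileum. The groups did not overlap, and control ileum lay above wild-type ileum by 1.96 (adjusted p = 0.00153). Adh1, Adh4 and Ugt2a3, a glucuronosyltransferase, showed the same order, with control above wild-type ileum by 1.46, 1.47 and 1.56 (adjusted p = 0.00999, 0.0133 and 0.001). Without control ileum replicate 2 the gap of Adh1 was 0.85 (adjusted p = 0.0171) and that of Adh4 was 0.93 and no longer called (0.0559). Lrat, which esterifies retinol, was higher in jejunum by 1.76 ± 0.179 and 1.90 against control and wild-type ileum.

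Slc5a12, Tmprss15 and Reg1 also rose in the jejunum. Slc5a12, a sodium-coupled lactate carrier, was at 11.42, 11.44 and 11.44 in wild-type jejunum and at 6.41, 6.21 and 5.78 in control ileum, a difference of 5.30 ± 0.674 (adjusted p = 2.75e-05). Tmprss15, the enteropeptidase that activates trypsinogen, was at 6.91, 7.69 and 8.04 in wild-type jejunum and between 2.62 and 3.11 in control ileum, a difference of 4.74 ± 0.664 (adjusted p = 6.38e-05) and at least 6.19-fold. Reg1, a secreted lectin-like protein, was at 10.87, 12.25 and 12.07 in wild-type jejunum and at 5.85, 6.71 and 6.48 in control ileum, a difference of 5.38 ± 0.361 (adjusted p = 7.54e-08). For Reg1 control ileum was above wild-type ileum by 1.72 (adjusted p = 0.003). Slc46a1, the folate transporter, differed by 3.51 ± 0.228 and 3.76 against the 2 ilea, and Slc36a1, a proton-coupled amino acid carrier, by 2.31 ± 0.259 and 3.10. The Slc36a1 gap between the ilea, 0.79 (adjusted p = 0.0341), was lost without any single array of either ileum.

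Gata4 had an intermediate level in control ileum. It was at 9.68, 9.45 and 9.47 in wild-type jejunum, against 6.71, 7.22 and 6.53 in control ileum and 5.99, 5.43 and 5.39 in wild-type ileum. The 3 groups did not overlap. Wild-type jejunum was 6.54-fold above control ileum (2.71 ± 0.185, adjusted p = 8.52e-08), and control was 2.33-fold above wild-type ileum (1.22, adjusted p = 0.000284). Gata6, its paralog, was at 9.60, 9.65 and 9.37 in wild-type jejunum and at 9.37, 9.20 and 9.37 in control ileum. That difference of 0.23 ± 0.0997 was not called (adjusted p = 0.0823), though it was without wild-type jejunum replicate 3 (0.31, adjusted p = 0.0277) and with array weights (0.0244), whereas the difference of 0.79 from wild-type ileum was called, as was the gap between the ilea (0.56, adjusted p = 0.000929). Gata5, the third member in gut epithelium, was called against neither ileum (-0.14 and 0.16).

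Some other transcription factors held against both ilea. Onecut2, a homeobox factor, was at 8.74, 9.21 and 9.08 in wild-type jejunum and at 5.66, 5.94 and 5.79 in control ileum, which is 9.29-fold (3.22 ± 0.168, adjusted p = 5.74e-09). Against wild-type ileum the difference was 3.18. Creb3l3, a membrane-bound factor of lipid metabolism, differed by 3.27 ± 0.403 and 3.09, and Zfpm1, a GATA cofactor, by 1.21 ± 0.142 and 1.65, with a called gap between the ilea for Zfpm1 alone of these 3 (0.44, adjusted p = 0.0303). That gap was lost without control ileum replicate 2 (0.123) or 3 (0.0822) or wild-type ileum replicate 2 (0.0584) or 3 (0.108). Over 22 tested transcription factors of the intestine, GATA factors among them, 5 were called higher and 6 lower against control ileum, and 6 and 5 against wild-type ileum, where 3 were lower without wild-type ileum replicate 2. Over all genes tested the shares were 17.1% and 23.7% against control ileum, and 13.4% and 7.91% against wild-type ileum. Nr1i3, the xenobiotic receptor CAR, was higher by 2.35 ± 0.198 and 3.36 (gap 1.01, adjusted p = 0.00184).

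Most tested genes of bile acid recovery were lower in the jejunum than in control ileum. Fabp6 differed by -8.04 ± 0.24 (adjusted p = 4e-11) and -8.28 against control and wild-type ileum, and Slc10a2 by -5.70 ± 0.291 (adjusted p = 4.33e-09) and -6.82. The Fabp6 gap between the ilea was not called (-0.24, adjusted p = 0.5), and that of Slc10a2 was (-1.12, adjusted p = 0.0105). Slc51a, a subunit of the basolateral exporter, was at 9.46, 9.41 and 8.93 in wild-type jejunum and at 11.31, 11.49 and 11.08 in control ileum (-2.03 ± 0.187, adjusted p = 1.51e-06). Fgf15, the hormone that FXR induces, was at 5.33, 4.75 and 5.15 in wild-type jejunum, against 8.16, 6.56 and 8.02 in control ileum and 8.28, 5.91 and 6.36 in wild-type ileum. All ileal arrays were above the jejunal ones, and the difference was called against control ileum (-2.50 ± 0.633, adjusted p = 0.00577) but not against wild-type ileum (-1.77, adjusted p = 0.0607), with no called gap between the ilea (0.73, adjusted p = 0.423). With the replicate number as a block in the 6 arrays of wild-type jejunum and wild-type ileum, the difference of -1.77 ± 0.321 from wild-type ileum was called too (adjusted p = 0.006). Of 12 tested genes of bile acid recovery and FXR signalling, 2 were called higher and 7 lower against control ileum, and 3 and 5 against wild-type ileum (medians -0.79 and -0.88). The count of 2 higher was 1 without wild-type jejunum replicate 1 or 2 or control ileum replicate 3.

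Suox, Sqor and Slc13a1 were lower in the jejunum, while other genes of sulfur handling were mixed. Suox, sulfite oxidase, was at 5.96, 5.89 and 5.78 in wild-type jejunum, against 10.66, 10.60 and 10.61 in control ileum and 10.66, 10.33 and 10.43 in wild-type ileum. It was 26.8-fold lower in wild-type jejunum than in control ileum (-4.74 ± 0.151, adjusted p = 4.81e-11), with no called gap between the ilea (0.15, adjusted p = 0.499). Sqor, which oxidises hydrogen sulfide, differed by -2.86 ± 0.122 and Slc13a1, a sulfate transporter, by -2.48 ± 0.257 from control ileum, while Papss2, which makes the active sulfate donor, was higher in jejunum by 2.37 ± 0.22. Ethe1, a mitochondrial sulfur dioxygenase, and Papss1, the paralog of Papss2, did not hold. They differed by -0.27 ± 0.182 and -0.05 ± 0.129 against control ileum (adjusted p = 0.259 and 0.789) and by -1.15 and -0.88 against wild-type ileum, with called gaps between the ilea of -0.88 and -0.83 (adjusted p = 0.00262 and 0.000331). Ethe1 was called against control ileum with array weights (-0.48, adjusted p = 0.0298). Of the 10 tested genes of sulfate and sulfite handling, 3 were called higher and 5 lower against control ileum, and 3 and 7 against wild-type ileum.

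Cholesterol synthesis was lower in the jejunum against both ilea. Of 20 tested genes, 16 were called lower and 0 higher against control ileum, and 16 and 0 against wild-type ileum (medians -0.81 and -0.88). Sqle, squalene epoxidase, was at 7.24, 7.27 and 7.0 in wild-type jejunum and at 9.61, 8.82 and 9.31 in control ileum, a 4.23-fold difference (-2.08 ± 0.166, adjusted p = 3.76e-07). Fdft1, squalene synthase, differed by -1.69 ± 0.144, Fdps, which makes farnesyl diphosphate, by -1.60 ± 0.133, and Srebf2, the transcription factor of the pathway, by -1.25 ± 0.107. Pmvk, phosphomevalonate kinase, was an exception. It was at 6.87, 6.89 and 6.68 in wild-type jejunum, against 6.71, 6.81 and 6.72 in control ileum and 7.93, 7.55 and 7.65 in wild-type ileum. Its difference was 0.07 ± 0.122 against control ileum (adjusted p = 0.691) and -0.89 against wild-type ileum, with a gap of -0.96 (adjusted p = 7.82e-05).

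Goblet cell genes were lower in the jejunum. Of 20 tested, 17 were called lower and 1 higher against control ileum, and 18 and 0 against wild-type ileum (medians -0.82 and -0.91). Agr2, a disulfide isomerase of mucin folding, was at 11.13, 11.08 and 11.10 in wild-type jejunum and at 12.59, 12.53 and 12.56 in control ileum (-1.46 ± 0.0958, adjusted p = 6.02e-08). Atoh1, the factor that sets the secretory lineage, differed by -1.41 ± 0.0981, and Guca2a, the hormone guanylin, by -2.06 ± 0.172. The summed level of the list was 14.59 to 14.79 (log2) in wild-type jejunum, 15.38 to 15.46 in control ileum and 15.23 to 15.39 in wild-type ileum. In such bulk samples fewer cells of a type and less RNA per cell cannot be told apart. Spdef, a factor of goblet cell maturation, was at 7.40, 7.23 and 7.24 in wild-type jejunum, against 7.31, 7.67 and 7.70 in control ileum and 8.33, 8.45 and 8.53 in wild-type ileum. It was not called against control ileum (-0.27 ± 0.119, adjusted p = 0.0879, but 0.0162 without control ileum replicate 1 and 0.0136 with array weights) and was against wild-type ileum (-1.15), with a gap of -0.88 (adjusted p = 0.000123). Zg16, a secreted mucus lectin, was called lower against control ileum (-0.81 ± 0.128, adjusted p = 0.000183) and was not called against wild-type ileum (-0.05, adjusted p = 0.843).

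**Figure D3:**
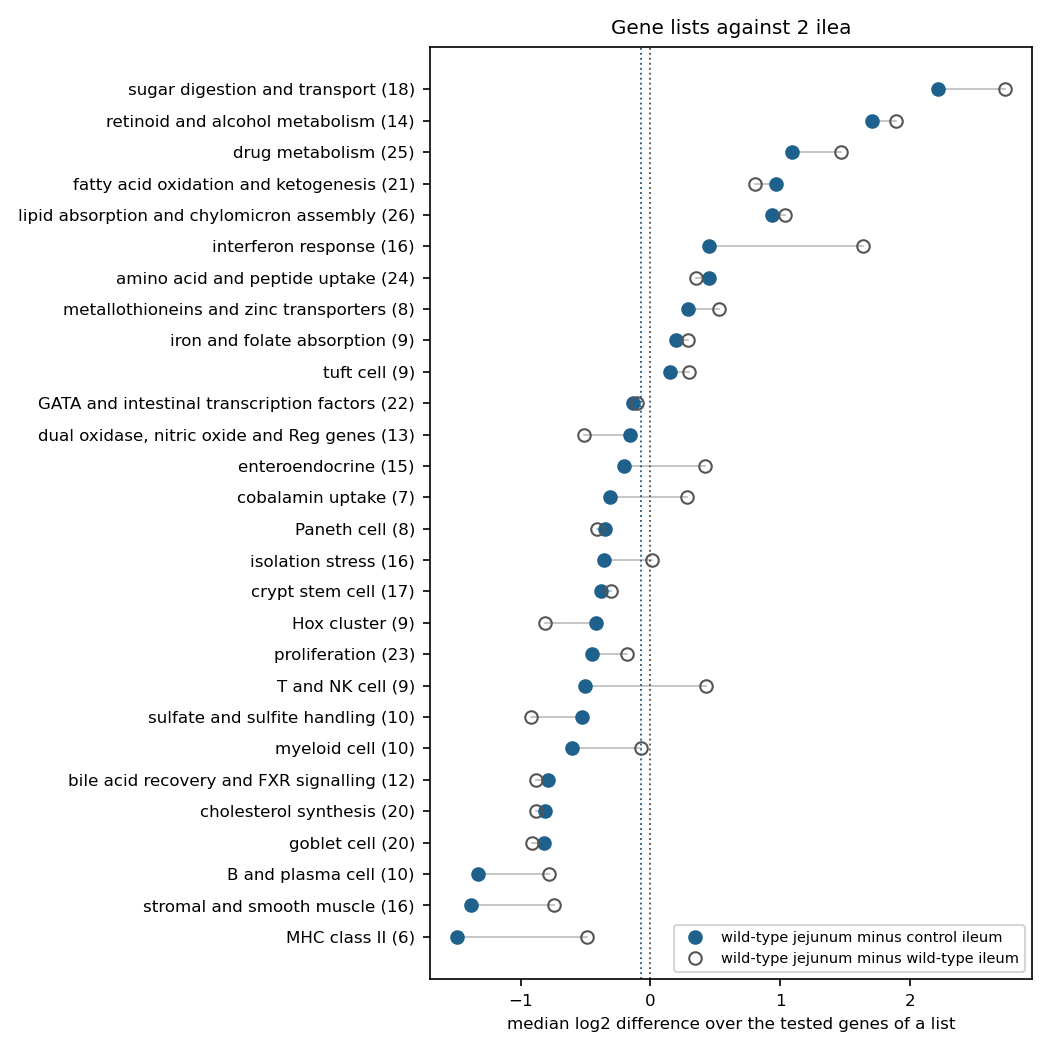
Median log2 difference (horizontal axis) over the tested genes of each list, with the number tested in brackets. Filled points are wild-type jejunum minus control ileum, open points wild-type jejunum minus wild-type ileum, and dotted lines the medians of all genes (-0.07 and 0.0). The lists of lipid absorption, fatty acid oxidation and cholesterol synthesis lie at like values against both ilea. The interferon, MHC class II, B and plasma cell, stromal and myeloid lists are among those that do not. The medians of the cobalamin (-0.31 and 0.28), enteroendocrine (-0.2 and 0.42) and T and NK cell (-0.5 and 0.43) lists are among those that change sign.

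Several ileal genes of defence and of the membrane held against both ilea. Duoxa2, the maturation factor of the oxidase Duox2, was at 4.80, 5.39 and 5.33 in wild-type jejunum, against 9.81, 7.57 and 9.81 in control ileum and 9.45, 9.72 and 9.47 in wild-type ileum (-3.89 ± 0.462, adjusted p = 1.51e-05). Nos2, inducible nitric oxide synthase, was at 4.93, 5.49 and 5.95 in wild-type jejunum and at 9.55, 8.33 and 9.47 in control ileum (-3.66 ± 0.36, adjusted p = 2.73e-06). Control ileum replicate 2 was the lowest ileal array for both genes and was still above every jejunal array. Ddah1, which breaks down an inhibitor of nitric oxide synthases, differed by -4.41 ± 0.239 (adjusted p = 8.06e-09), Tmigd1, a membrane protein with immunoglobulin domains, by -4.54 ± 0.299 (6.02e-08), and Mgat4c, of the family of N-glycan branching enzymes, by -3.45 ± 0.156 (1.08e-09). None of these 5 genes had a called gap between the ilea. Naaladl1, a brush border peptidase, differed by -2.56 ± 0.208 and -2.36 against the 2 ilea. Plb1, phospholipase B, held with a gap. It was at 5.73, 5.51 and 5.91 in wild-type jejunum, against 9.80, 9.97 and 8.94 in control ileum and 8.19, 6.60 and 7.01 in wild-type ileum, and control ileum was 4.94-fold above wild-type ileum (2.30, adjusted p = 0.00224). The array has 7 clusters for Plb1, and all 7 were lower in wild-type jejunum than in control ileum, with differences from -5.30 to -2.81. Duoxa2 and Nos2 belong to a list of dual oxidase, nitric oxide and Reg genes. Of its 13 tested genes, 2 were called higher and 3 lower against control ileum, and 1 and 5 against wild-type ileum. The matching shares of all genes were 17.1% and 23.7%, and 13.4% and 7.91%. The 3 lower were thus near the share of all genes, and Reg1, of the same list, went the other way.

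The ileal genes that did not hold included Car1, a carbonic anhydrase. It was at 4.35, 3.89 and 3.94 in wild-type jejunum, against 4.50, 4.39 and 3.98 in control ileum and 10.26, 9.53 and 8.34 in wild-type ileum. Control ileum lay with the jejunum below 4.91. The difference was -0.23 ± 0.34 against control ileum (adjusted p = 0.62) and -5.31 against wild-type ileum (adjusted p = 5.32e-08), and the gap of -5.09 was called (adjusted p = 1.64e-07), with Car1 at least 22.0-fold lower in control than in wild-type ileum. Slc6a14, an amino acid transporter, was at 2.88, 3.09 and 3.02 in wild-type jejunum, against 7.53, 3.05 and 5.13 in control ileum and 9.38, 9.68 and 9.58 in wild-type ileum. Control ileum replicate 2 lay among the jejunal arrays. The call against control ileum (-2.24 ± 0.711, adjusted p = 0.0208) was lost without wild-type jejunum replicate 1 (0.0559) or control ileum replicate 1 (-1.09, adjusted p = 0.0665). It was also lost in the arrays of the compared groups alone (0.083) and with the replicate block in the 6 arrays (0.0555), and the gap of -4.31 was called (adjusted p = 0.000523).

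Saa1, serum amyloid A, was at 3.25, 3.22 and 3.27 in wild-type jejunum, against 6.82, 2.84 and 6.86 in control ileum and 8.78, 9.51 and 9.68 in wild-type ileum. Its difference from control ileum missed the threshold (-2.26 ± 0.869, adjusted p = 0.0501) and passed it without control ileum replicate 2 (-3.59, adjusted p = 0.000427), as it did with the stricter filter (0.0466), array weights (-2.96, adjusted p = 0.00165) or the replicate block over all arrays (0.0372) or the 6 alone (0.0498). Its gap between the ilea was -3.82 (adjusted p = 0.00486), or -2.49 without control ileum replicate 2 (0.00981). Hao2, a peroxisomal hydroxy acid oxidase, Fa2h, which hydroxylates fatty acids, and Tspan12, a tetraspanin, were called against wild-type ileum (-1.51, -1.85 and -1.16) and not against control ileum (-0.17 ± 0.202, -0.53 ± 0.298 and 0.14 ± 0.17). Their gaps between the ilea were -1.34, -1.32 and -1.30, all called (adjusted p = 0.000281, 0.0046 and 9.39e-05).

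Some Hox genes, which mark position along the body axis, were lower in control than in wild-type ileum. Of 9 tested, 3 were called lower in jejunum against control ileum and 6 against wild-type ileum (medians -0.42 and -0.81), and 4 were called lower in control than in wild-type ileum. The matching shares of all genes were 23.7%, 7.91% and 8.61%. Hoxb9 was at 4.87, 4.99 and 5.13 in wild-type jejunum, against 6.08, 5.08 and 6.54 in control ileum and 7.30, 7.71 and 7.21 in wild-type ileum. Control ileum replicate 2 overlapped the jejunal arrays, and no control array reached the wild-type ileal ones (gap -1.50, adjusted p = 0.00075). Hoxb9 and Hoxb6 were called against control ileum (-0.91 ± 0.26 and -0.58 ± 0.163, adjusted p = 0.0123 and 0.0108), and neither was without control ileum replicate 3 (0.0669 and 0.063), which left 1 of the 9 called, and Hoxb9 was not in the arrays of the compared groups alone (0.0525), while 5 were called without wild-type jejunum replicate 3. Hoxb6 differed by -1.14 between the ilea (adjusted p = 0.000179). Hoxb7 was at 4.79, 4.47 and 4.79 in wild-type jejunum, against 4.49, 4.58 and 4.74 in control ileum and 5.48, 5.92 and 5.38 in wild-type ileum, so it was above 4.91 in wild-type ileum only of the 3 groups (gap -0.99, adjusted p = 0.00058). Hoxb5 was called against both (-1.35 ± 0.231 and -2.30), with a jejunal mean below 4.91 and a control mean at it. A further 14 named Hox genes lay below 4.91 in every group mean.

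The jejunum-high genes that did not hold included the gut hormone gene Gip. Gip, of K cells, was at 8.68, 8.77 and 8.45 in wild-type jejunum, against 7.67, 9.15 and 7.83 in control ileum and 5.57, 5.43 and 6.41 in wild-type ileum. Control ileum overlapped the jejunum through its replicate 2 and lay 5.32-fold above wild-type ileum (2.41, adjusted p = 8.8e-05). The difference from control ileum was not called (0.42 ± 0.311, adjusted p = 0.307), and it was without control ileum replicate 2 (0.88, adjusted p = 0.00726) and with array weights (0.67, adjusted p = 0.0441). Spry3, an inhibitor of receptor tyrosine kinase signalling, was at 5.82, 5.85 and 5.74 in wild-type jejunum, against 6.18, 6.18 and 5.51 in control ileum and 4.29, 3.79 and 4.70 in wild-type ileum (gap 1.69, adjusted p = 0.00019). Vnn1, a pantetheinase, was at 9.01, 8.97 and 8.96 in wild-type jejunum and at 7.80, 8.14 and 8.36 in control ileum. It was separated on every array, yet its difference of 0.88 ± 0.344 missed the threshold (adjusted p = 0.0533). It passed under 6 alternatives, with adjusted p = 0.00214 in the arrays of the compared groups alone and up to 0.0492 with the stricter filter, and control was above wild-type ileum by 1.83 (adjusted p = 0.00133). Defa39, a Paneth cell defensin of a family of near-identical copies that share probes, is uncertain for that reason (gap 1.64, adjusted p = 0.00688).

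Interferon-response genes were a further set that held against wild-type ileum and mostly not against control ileum. Of 16 tested, 4 were called higher and 0 lower against control ileum, and 12 and 0 against wild-type ileum (medians 0.45 and 1.64), and 8 were called higher in control than in wild-type ileum, or 4 without control ileum replicate 2 and 5 without wild-type ileum replicate 2. Ifit3, which binds viral RNA complexes, was at 6.86, 6.40 and 7.30 in wild-type jejunum, against 6.96, 9.14 and 5.91 in control ileum and 5.23, 4.60 and 4.75 in wild-type ileum. Control ileum replicate 2 was the highest of these 9 arrays. The gaps between the ilea were 2.48 for Ifit3 (adjusted p = 0.00348), 1.84 for Usp18, which removes ISG15 (0.0137), 1.69 for Oasl2 (0.0303), 1.87 for Rtp4 (0.007) and 0.99 for Irf9, a factor of interferon signalling (0.000513). Without control ileum replicate 2 they were 1.58 for Ifit3 (adjusted p = 0.00182) and 1.19 for Rtp4 (0.0177), and those of 1.25 for Usp18 (0.0655) and 1.0 for Oasl2 (0.144) were not called. The Oasl2 gap was also lost without wild-type ileum replicate 2 (0.098) or 3 (0.0908). Irf9 was at 7.34, 7.29 and 7.29 in wild-type jejunum and at 7.14, 7.81 and 7.16 in control ileum.

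The interferon result changed with single arrays. Without control ileum replicate 2, 8 of the 16 were called higher in jejunum than in control ileum, with a median of 0.98. Without control ileum replicate 3 or without wild-type jejunum replicate 3 the number was 1, and the median was 0.08 and 0.27. Oasl2 was called without control ileum replicate 2 (1.59, adjusted p = 0.0171), as was Rtp4 (1.81, adjusted p = 0.000663). With array weights both were called (0.0345 and 0.00533), and Rtp4 was called with centred arrays (0.0412). Ddx60, a helicase of antiviral sensing, was at 8.62, 8.72 and 9.27 in wild-type jejunum and at 6.86, 7.96 and 5.71 in control ileum, and it held (2.03 ± 0.432, adjusted p = 0.00181). Ifit1 was called against control ileum (1.15 ± 0.374, adjusted p = 0.0238), and not without wild-type jejunum replicate 3 (0.102), control ileum replicate 3 (0.128) or with the replicate block in the 6 arrays (0.0654), and its gap between the ilea was 1.66 (adjusted p = 0.00459).

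**Figure D4:**
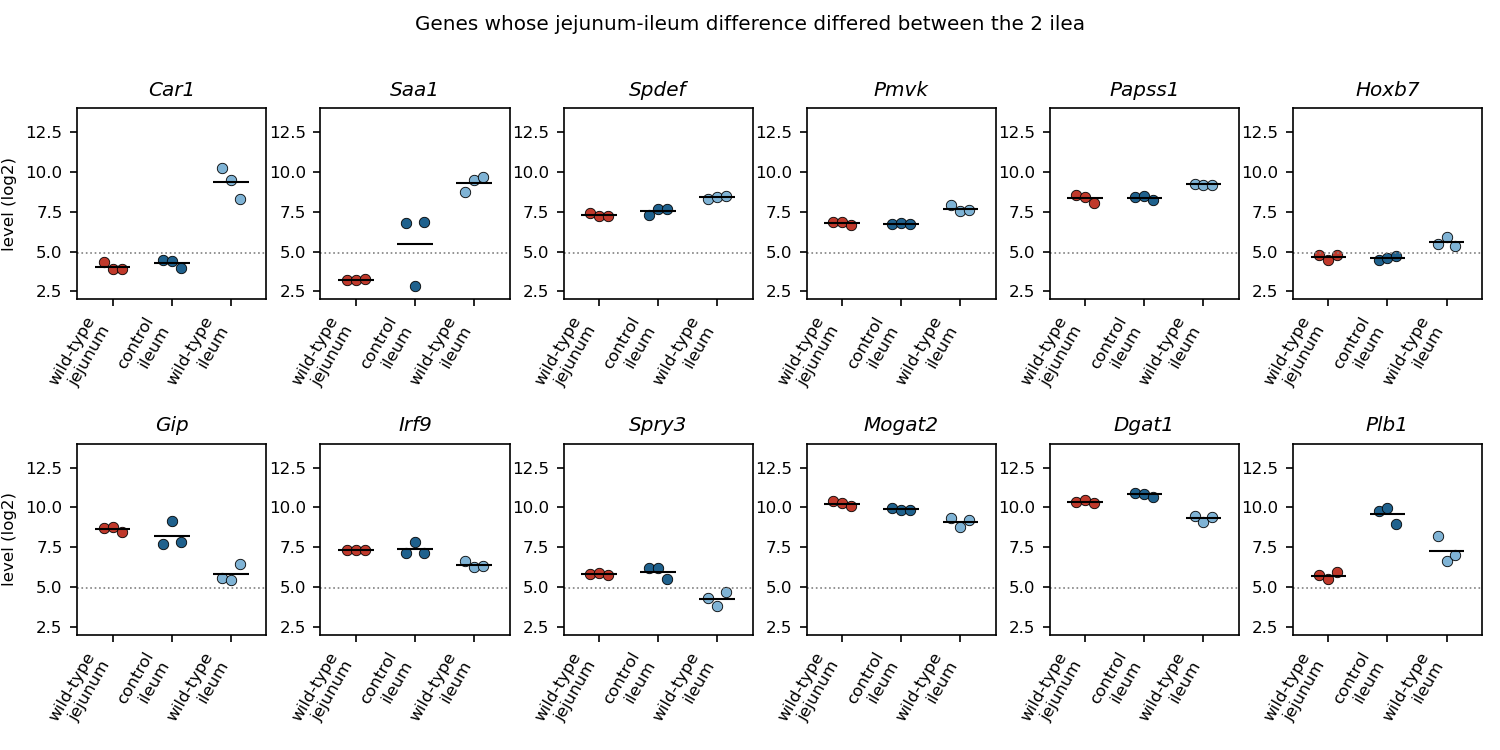
Log2 levels of 12 genes (vertical axis) on each of the 3 arrays of wild-type jejunum, control ileum and wild-type ileum, chosen among those with a called gap between the ilea. Points are arrays, short lines are group means, and the dotted line is the level of 4.91; Car1, Pmvk, Papss1 and Hoxb7 in control ileum sit with wild-type jejunum, and Saa1 splits 2 control arrays from the remaining one.

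Some genes were called against control ileum alone. Of the 532 higher at 2-fold or more, 101 (19.0%) were not called against wild-type ileum. Of these 101, 89 were called lower in control than in wild-type ileum, and 12 had no called gap. Of the 491 lower at 2-fold or more, 226 (46.0%) were not called against wild-type ileum. Among these 226, 190 were called higher in control than in wild-type ileum, and 36 had no called gap. Both sets were chosen by the 2 differences that make up the gap, so the sign of the gap was largely fixed by the choice. For genes without a called gap, dependence on the ileum is not shown. The set of 101 held many small nucleolar RNA genes, whose products guide chemical modification of ribosomal RNA. Snord22 was at 10.53, 10.47 and 10.58 in wild-type jejunum, against 5.21, 4.62 and 5.24 in control ileum and 10.64, 10.20 and 10.72 in wild-type ileum. Snord58b was at 8.48, 8.50 and 8.81 in wild-type jejunum, against 3.68, 3.42 and 3.44 in control ileum and 8.48, 8.38 and 8.67 in wild-type ileum. In both, control ileum stood alone among these 3 groups, and the differences from wild-type ileum were 0.0 and 0.09. They differed from control ileum by 5.50 ± 0.199 and 5.08 ± 0.206 (adjusted p = 1.52e-10 and 4.56e-10), the second of which is at least 12.9-fold.

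The same arrangement was seen over much of the small nucleolar RNA genes. Of 46 tested Snord and Snora genes, a list chosen after its values were seen, 30 were called higher and 5 lower in jejunum against control ileum, and 2 and 0 against wild-type ileum (medians 1.07 and -0.1). Between the ilea 5 were called higher and 27 lower in control. Their summed level was 14.40 to 14.72 (log2) in wild-type jejunum, 13.59 to 13.99 in control ileum and 14.61 to 14.88 in wild-type ileum, and it was 13.78 to 14.06 in cKI ileum and 14.40 to 14.92 in cKO jejunum. Snord22 was at 5.50, 4.79 and 5.09 in cKI ileum and at 10.47, 10.60 and 10.83 in cKO jejunum. Control and cKI ileum were thus low together and the other 3 groups high together. Snord61, Snord38a, Snord16a, Snord42a, Snord55 and Mir6516 had gaps between the ilea of -5.01, -4.04, -3.83, -3.26, -3.51 and -3.17, all called, some of them with control means below 4.91. Rny1, a small RNA of the Ro particle, was at 7.56, 7.61 and 8.01 in wild-type jejunum, against 4.93, 4.44 and 4.79 in control ileum and 8.59, 8.62 and 9.01 in wild-type ileum. It was called higher against control ileum (3.01 ± 0.21, adjusted p = 1.04e-07, at least 7.06-fold) and lower against wild-type ileum (-1.01, adjusted p = 0.00261), with a gap of -4.02 (adjusted p = 1.06e-08). Without small structural RNA genes, 76 jejunum-high and 221 ileum-high genes were still called at 2-fold or more against control ileum and not against wild-type ileum.

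**Figure D5:**
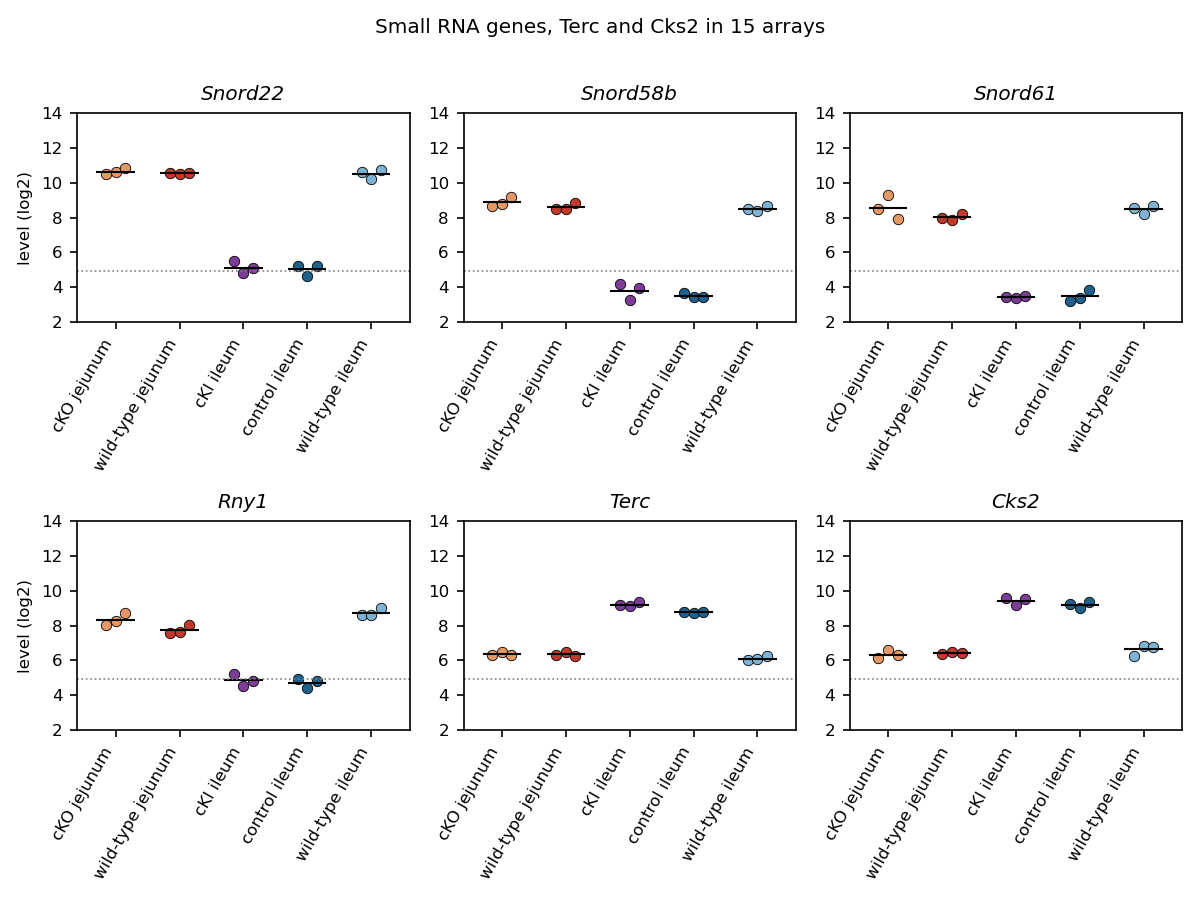
Log2 levels (vertical axis) of Snord22, Snord58b, Snord61, Rny1, Terc and Cks2 on the 3 arrays of each of the 5 groups. Points are arrays, short lines are group means, and the dotted line is the level of 4.91; the 4 small RNA genes are low in cKI and control ileum, where Terc and Cks2 are high.

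The opposite arrangement was not rare. Of the 226 genes lower at 2-fold or more against control ileum alone, 190 were called higher in control than in wild-type ileum. Terc, Psmb3 and Cks2 are among them. Terc, the RNA of telomerase, was at 6.30, 6.47 and 6.25 in wild-type jejunum, against 8.75, 8.73 and 8.80 in control ileum and 6.0, 6.06 and 6.24 in wild-type ileum. Psmb3, a proteasome subunit, was at 8.94, 8.90 and 8.66 in wild-type jejunum, against 11.35, 11.13 and 11.44 in control ileum and 8.80, 8.94 and 8.98 in wild-type ileum. Cks2, a subunit of cyclin-dependent kinases, was at 6.34, 6.49 and 6.40 in wild-type jejunum, against 9.24, 8.99 and 9.33 in control ileum and 6.26, 6.85 and 6.78 in wild-type ileum. In each, jejunum and wild-type ileum lay together and control ileum stood above them. The differences from control ileum were -2.42 ± 0.104, -2.47 ± 0.121 and -2.78 ± 0.168 (adjusted p = 6.76e-10, 2.54e-09 and 2.64e-08), and the gaps between the ilea were 2.66, 2.40 and 2.56, all called. In cKI ileum Terc was at 9.15, 9.12 and 9.34 and Cks2 at 9.57, 9.18 and 9.53. In cKO jejunum Terc was at 6.31, 6.50 and 6.32 and Cks2 at 6.11, 6.59 and 6.28. The 3 clusters of Cks2 differed by -2.78, -2.68 and -2.42 from control ileum.

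Stromal genes were lower in the jejunum. Of 16 stromal and smooth muscle genes, 12 were called lower and 0 higher against control ileum (median -1.38), and 8 and 0 against wild-type ileum (median -0.74), where the 8 were 5 without wild-type jejunum replicate 1 or 2 or wild-type ileum replicate 1 or 3. Vim, the intermediate filament of mesenchymal cells, was at 5.44, 5.44 and 5.39 in wild-type jejunum, against 7.19, 8.41 and 7.68 in control ileum and 6.17, 5.98 and 6.10 in wild-type ileum (gap 1.68, adjusted p = 0.000123). The summed level of the list was 9.28 to 9.42 in wild-type jejunum, 9.97 to 11.28 in control ileum and 9.74 to 10.10 in wild-type ileum, and its members Pdgfra and Lum were below 4.91 in every group mean. Dcn, a matrix proteoglycan, was lower in jejunum than in control ileum by -2.28 ± 0.357, with a gap of 1.17 (adjusted p = 0.0242) that was lost without control ileum replicate 2 (0.62, adjusted p = 0.0844) or wild-type ileum replicate 2 (0.0885). The part of these cells in the gene differences above was not tested.

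Plasma and B cell genes were lower against control ileum. Of 10 tested, 9 were called lower and 0 higher against control ileum, and 2 and 0 against wild-type ileum (medians -1.33 and -0.78). Jchain, which joins IgA into dimers, was at 4.36, 5.61 and 3.74 in wild-type jejunum, against 7.24, 9.14 and 7.79 in control ileum and 5.91, 5.75 and 6.29 in wild-type ileum (-3.49 ± 0.48, adjusted p = 5.47e-05, gap 2.07, adjusted p = 0.00542), and it was at least 8.88-fold lower than in control ileum. The list count was 5 without control ileum replicate 2 and 4 without control ileum replicate 3, and the 2 against wild-type ileum were lost without wild-type jejunum replicate 1 or 3 or wild-type ileum replicate 2 or 3. Its summed level was 7.98 to 8.30 in wild-type jejunum, 8.79 to 10.40 in control ileum and 8.68 to 9.21 in wild-type ileum, and Tnfrsf17, a plasma cell marker, was below 4.91 in every group mean.

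MHC class II genes, which present antigen on immune cells and on stimulated enterocytes, were called lower in all 6 tested cases against control ileum and in 3 against wild-type ileum (medians -1.49 and -0.49). H2-Aa was at 7.65, 7.69 and 7.64 in wild-type jejunum, against 9.42, 9.77 and 9.89 in control ileum and 8.99, 8.92 and 8.41 in wild-type ileum. H2-DMa, which loads peptide, differed by -1.59 ± 0.192 from control ileum (adjusted p = 1.79e-05) and by -0.41 from wild-type ileum (adjusted p = 0.153), with a gap of 1.18 (adjusted p = 0.000473). The summed level of class II genes was 10.67 to 10.78 in wild-type jejunum, 11.75 to 12.56 in control ileum and 11.34 to 11.88 in wild-type ileum.

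T and NK cell and myeloid lists gave fewer calls. Of 9 T and NK cell genes, 2 were called lower against control ileum and 0 against wild-type ileum (medians -0.5 and 0.43), a count near the 23.7% of all genes. The 2 were Nkg7, of cytotoxic granules, and the chemokine Ccl5. Without wild-type jejunum replicate 3 or control ileum replicate 2 the count was 0, without wild-type jejunum replicate 2 or control ileum replicate 3 it was 1, and without control ileum replicate 1 it was 4. Nkg7 differed by -1.22 ± 0.356 (adjusted p = 0.0132, gap 1.48, adjusted p = 0.00674) and Ccl5 by -1.39 ± 0.498 (adjusted p = 0.0371, gap 1.66, adjusted p = 0.0223). Nkg7 was not called without wild-type jejunum replicate 3 (0.0555) or control ileum replicate 2 (0.056), nor Ccl5 without replicates 2 (0.126) or 3 (0.108) of wild-type jejunum or 2 (0.151) or 3 (0.0759) of control ileum, nor with the robust variance prior with a trend (0.0722). The Ccl5 gap was lost without control ileum replicate 2 (0.0969) or 3 (0.0525) or wild-type ileum replicate 2 (0.1) or 3 (0.0564). The summed level was 9.90 to 10.74 in wild-type jejunum, 10.42 to 11.40 in control ileum and 9.26 to 10.34 in wild-type ileum, and Cd3d and Cd4 were below 4.91 in every group mean. Of 10 myeloid genes, 5 were called lower against control ileum and 2 against wild-type ileum, with a summed level of 9.24 to 9.69 in wild-type jejunum, 10.01 to 10.33 in control ileum and 9.76 to 9.99 in wild-type ileum. The myeloid count was 2 without any one of wild-type jejunum replicates 2 and 3 and control ileum replicates 2 and 3, and without the last of these 1 gene was called higher. Mcpt1 and Mcpt2, proteases of mucosal mast cells, were called lower against control ileum (-2.45 ± 0.812 and -2.50 ± 0.84, adjusted p = 0.0257 and 0.0273). Control ileum replicate 3 was at 8.92 for Mcpt1, beside 5.27 and 5.70 in the other control arrays, and without it the adjusted p-values were 0.129 and 0.136. The Mcpt1 call was also lost without wild-type jejunum replicate 1 (0.0714) or 2 (0.0624), and that of Mcpt2 without replicate 1 (0.0718), 2 (0.0522) or 3 (0.0632). Both were lost with the robust variance prior with a trend (0.0585 and 0.0616), and Mcpt2 in the arrays of the compared groups alone (0.0507). The Mcpt1 gap between the ilea was 2.50 (adjusted p = 0.0328), and it was not called without control ileum replicate 3 (1.35, adjusted p = 0.147) or without wild-type ileum replicate 1 (0.0934), 2 (0.0656) or 3 (0.0619). Mcpt1 was at 3.94, 4.12 and 4.48 in wild-type jejunum.

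Some cell cycle and stem cell genes were lower in the jejunum than in control ileum. Of 23 proliferation genes, 9 were called lower and 0 higher against control ileum and 0 of 23 against wild-type ileum in either direction (medians -0.45 and -0.18), and 5 were called higher in control than in wild-type ileum, or 2 to 3 without control ileum replicate 1 or 3 or wild-type ileum replicate 1 or 3. The count of 9 was 5 without control ileum replicate 1, 6 without wild-type jejunum replicate 1 or 3 and 12 without control ileum replicate 2. Cdk1, the mitotic kinase, was at 6.67, 6.74 and 6.86 in wild-type jejunum, against 8.22, 7.63 and 8.10 in control ileum and 6.71, 6.95 and 7.18 in wild-type ileum (gap 1.04, adjusted p = 0.00204). Lgr5, a receptor of crypt stem cells, held against both ilea (-1.45 ± 0.17 and -0.79), with a gap of 0.66 (adjusted p = 0.00991). Of 17 stem cell genes, 8 were called lower and 1 higher against control ileum, and 6 and 0 against wild-type ileum, and 5 were called lower without wild-type jejunum replicate 1. The single gene called higher, Sox4, was lost without wild-type jejunum replicate 1 or 2 or control ileum replicate 1 or 3.

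Hormone genes other than Gip gave mixed results. Pyy and Gcg, of L cells, were lower in jejunum against both ilea, by -2.23 ± 0.267 and -2.19 ± 0.285 against control ileum and by -1.66 and -1.43 against wild-type ileum. Their gaps between the ilea of 0.57 and 0.76 were not called (adjusted p = 0.125 and 0.0592), though that of Gcg was without control ileum replicate 3 (0.0294). Nts, neurotensin, was at 6.47, 6.78 and 5.86 in wild-type jejunum, against 7.67, 8.51 and 7.62 in control ileum and 6.60, 5.86 and 6.62 in wild-type ileum. It was called against control ileum (-1.56 ± 0.266, adjusted p = 0.000321) and not against wild-type ileum (0.01, adjusted p = 0.986), with a gap of 1.57 (adjusted p = 0.000627). Of 15 enteroendocrine genes, 1 was called higher and 5 lower against control ileum, 3 and 2 against wild-type ileum, and 6 higher in control than in wild-type ileum. The matching shares of all genes were 17.1%, 23.7%, 13.4%, 7.91% and 19.3%. Without wild-type jejunum replicate 3 or without control ileum replicate 2 the counts against control ileum were 3 higher and 3 lower, and without each of the other 4 arrays none was called higher. Against wild-type ileum 6 were higher without wild-type jejunum replicate 3. The median was -0.2 in the full set and 0.03 without wild-type jejunum replicate 3.

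The remaining lists gave smaller or mixed counts. They stand beside 17.1% of all genes called higher and 23.7% lower against control ileum, and 13.4% and 7.91% against wild-type ileum. Of 24 genes of amino acid and peptide uptake, 11 were called higher and 7 lower against control ileum (median 0.45), and 10 and 7 against wild-type ileum (median 0.35). Slc1a1, a glutamate transporter, was at 7.96, 8.19 and 7.90 in wild-type jejunum and at 9.79, 9.59 and 9.46 in control ileum (-1.59 ± 0.115, adjusted p = 1.37e-07), and Mep1a, a meprin peptidase, differed by -2.26 ± 0.245. Of 8 metallothionein and zinc transporter genes, 4 were called higher and 1 lower against both ilea. Mt1, a metallothionein, was at 11.81, 11.62 and 11.63 in wild-type jejunum, against 9.87, 9.99 and 10.67 in control ileum and 11.27, 10.80 and 11.32 in wild-type ileum, so its regional difference was larger against control ileum (1.51 ± 0.179 and 0.56, gap -0.95, adjusted p = 0.00132). Of 9 iron and folate genes, 3 were called higher and 1 lower against control ileum, and 3 lower without control ileum replicate 2. Heph, a ferroxidase of iron export, was higher against control ileum (0.93 ± 0.202, adjusted p = 0.00212) and not called against wild-type ileum (0.29, adjusted p = 0.367). Its gap between the ilea was -0.64 (adjusted p = 0.0287). That gap was lost without control ileum replicate 2 (0.105) or 3 (0.0922) or wild-type ileum replicate 1 (0.105) or 3 (0.0624). Of 8 Paneth cell genes, 4 were called lower against control ileum and 1 against wild-type ileum, and 2 were so without wild-type jejunum replicate 2 or 3 or control ileum replicate 1 or 2. Tuft cell genes gave 1 call higher of 9 against control ileum, calcium and vitamin D genes 1 higher and 2 lower of 4, cobalamin genes 2 lower of 7, and endothelial and glial genes 1 lower of 3. Neither of 2 pancreas and erythrocyte genes was called.

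Genes induced by cell isolation were called in shares near those of all genes. Of 16, 2 were called higher and 5 lower against control ileum, and 2 and 1 against wild-type ileum (medians -0.36 and 0.01), beside 17.1% and 23.7% of all genes against control ileum. Without wild-type jejunum replicate 1 or 2, 3 were lower, and without control ileum replicate 2 the median was -0.02. Egr1, an immediate early transcription factor, was at 5.20, 5.03 and 5.30 in wild-type jejunum, against 5.65, 9.50 and 7.14 in control ileum and 5.78, 5.49 and 5.71 in wild-type ileum. The 3 control arrays were far apart, with replicate 2 highest. The difference was -2.25 ± 0.633 (adjusted p = 0.0108), or -1.21 without control ileum replicate 2 (0.0224), and the call was lost in the arrays of the compared groups alone (0.0531). The gap between the ilea was 1.77 (adjusted p = 0.0499), or 0.73 without control ileum replicate 2 (0.186) and 2.66 without control ileum replicate 1 (0.00205). That gap was also not called without control ileum replicate 3 (0.0762) or without wild-type ileum replicate 1 (0.0885), 2 (0.12) or 3 (0.0967). Its part in the other results was not tested.

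The promoter windows were also counted over the genes that held. Of 283 promoters found for the 347 genes higher in jejunum at 2-fold or more against both ilea, 81 (28.6%) held the GATA motif, as did 26 of 118 promoters (22.0%) of the 157 genes lower against both. The share was 18.7% over 9428 promoters of the genes tested and 29.8% over all 32851 promoters in the table. The partial HNF1 motif was in 9.89% of the first set and 8.47% of the second, beside 4.14% of the promoters of tested genes and 7.1% of all. The shares over all 32851 promoters count every listed promoter, while the other shares take only the first listed promoter of each gene. They are thus not like measures. These shares are descriptions, and base composition was not matched.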

How the data were processed

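Epithelial RNA of 15 samples, 3 in each of 5 groups, was measured on Affymetrix Mouse Gene 1.0 arrays. The deposited values are log2 levels per transcript cluster, made with Partek per the submitters' processing notes; its version, background correction, normalization and summarization are not given in the sources used here. Array medians ran from 4.82 to 5. Of 35556 clusters, 21789 had 1 gene symbol in the platform annotation, 1621 several and 12146 none. The brightest cluster stood for each of 19938 genes, and 11784 with a group mean above 4.91 were tested. limma 3.58.1 in R 4.3.3 fitted 1 mean per group over all 15 arrays (10 residual degrees of freedom), with eBayes and the Benjamini-Hochberg correction, and the method was tested on simulated data. Members and gene lists were chosen with earlier results of these data known. Named genes were markers, the 10 largest separated changes each way, the largest of the failing, gained and between-ileum differences, reversed genes and the leading members of each list. Deviations of same-numbered arrays correlated at -0.125, -0.143 and -0.0174 between wild-type jejunum and control ileum, so these were not paired, and at 0.334, 0.216 and 0.161 between wild-type jejunum and wild-type ileum, above the limit of 0.1 for pairing, a link found in the data and not in the labels. Alternatives covered the filter, scaling, arrays fitted, cluster choice, array weights, variance prior, replicate block and each replicate left out. Promoters are RefSeq, GRCm38.p6.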

Additional observations from a re-analysis of the deposited data

Results flagged for a closer look

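Of 118 genes named here, 50 had a called difference of 2-fold or more between control and wild-type ileum, which is the test of whether their regional difference depended on the ileum used, 32 of them higher and 18 lower in control ileum. Many were named because of this difference, and over all genes 2.35% were so higher and 0.908% lower. Values are log2 control ileum minus wild-type ileum. Small RNA genes lower in control ileum were Mir6516 (-3.17), Rny1 (-4.02), Snord16a (-3.83), Snord22 (-5.50), Snord38a (-4.04), Snord42a (-3.26), Snord55 (-3.51), Snord58b (-4.99) and Snord61 (-5.01). Other genes lower in control ileum were Car1 (-5.09), Fa2h (-1.32), Hao2 (-1.34), Hoxb6 (-1.14), Hoxb9 (-1.50), Saa1 (-3.82), Slc10a2 (-1.12), Slc6a14 (-4.31) and Tspan12 (-1.30). Markers of immune or stromal cells and the isolation gene Egr1 were higher in control ileum, namely Ccl5 (1.66), Dcn (1.17), Egr1 (1.77), H2-DMa (1.18), Jchain (2.07), Mcpt1 (2.50), Nkg7 (1.48) and Vim (1.68). Interferon-response genes higher in control ileum were Ifit1 (1.66), Ifit3 (2.48), Oasl2 (1.69), Rtp4 (1.87) and Usp18 (1.84). The other genes higher in control ileum were Adh1 (1.46), Adh4 (1.47), Adh6a (1.96), Cdk1 (1.04), Cks2 (2.56), Defa39 (1.64), Dgat1 (1.49), Gata4 (1.22), Gip (2.41), Nr1i3 (1.01), Nts (1.57), Plb1 (2.30), Pnliprp2 (1.43), Psmb3 (2.40), Reg1 (1.72), Spry3 (1.69), Terc (2.66), Ugt2a3 (1.56) and Vnn1 (1.83). Without control ileum replicate 2 the differences of Dcn, Egr1, Ccl5, Adh4, Oasl2 and Usp18 were no longer called (0.62, 0.73, 1.3, 0.93, 1.0 and 1.25), and those of Saa1, Adh1, Ifit3 and Rtp4 were -2.49, 0.85, 1.58 and 1.19. Without control ileum replicate 3 that of Mcpt1 was 1.35 and not called. The Ccl5, Dcn, Egr1, Mcpt1 and Oasl2 differences were also lost without other single arrays. Where one of the ileal means lies below 4.91 the size of the difference is not reliable.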

How the results depend on the processing

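Most counts stayed within 1.5 times of the reported value, while the balance of directions turned with the scaling. After centring, 2294 genes were higher and 2144 lower in wild-type jejunum than in control ileum, and after quantile normalization 1635 were higher and 1779 lower in control than in wild-type ileum. At 2-fold or more, 532 genes were higher and 491 lower in wild-type jejunum than in control ileum. With array weights 1616 genes were lower in control than in wild-type ileum, 1651 lower in wild-type jejunum than in wild-type ileum and 40 jejunum-high genes were not called against control ileum. Of the calls against wild-type ileum 62.8% were higher in wild-type jejunum, or 52.0% after quantile normalization. The causes were not tested. With 1 replicate left out, genes higher and lower against control ileum numbered 1593 to 1946 and 2233 to 2542, and against wild-type ileum 1121 to 1594 and 692 to 777. Control against wild-type ileum gave 1681 to 1941 and 740 to 886. Jejunum-high genes numbered 423 to 538, with 382 to 471 called the same way and 41 to 91 not called, and ileum-high genes 210 to 241, with 186 to 214 and 24 to 43. The replicate block over all arrays gave 1985 higher and 2762 lower against control ileum and 1546 and 916 against wild-type ileum, and with it in the 6 arrays alone the first pair was 1773 and 2396. In the 6 arrays of wild-type jejunum and wild-type ileum the block gave 1642 higher and 1111 lower, and 4 genes named in the text, Fgf15, Egr1, Snord61 and Vim, were called there and not without it. Genes that held, failed or were called against control ileum alone were not recounted with the block in those 6 arrays. For wild-type jejunum minus control ileum, 148 of 210 named genes kept call and direction under the 16 to 17 alternatives run for each. In the same comparison 62 changed call under at least 1, and 0 reversed. This count does not cover the gaps between the ilea or the differences from wild-type ileum. Leaving out small RNA genes, the block in those 6 arrays, and recounting lists and gaps between the ilea without each array were chosen after seeing the data. The number of arrays limits the precision, and levels near 4.91 carry no reliable fold.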

Other observations

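Clusters without a single gene symbol also differed between wild-type jejunum and control ileum, where region cannot be told apart from the set of mice. Of 872 tested clusters with several symbols, 194 were called higher and 248 lower in wild-type jejunum than in control ileum. Of 5699 tested clusters with no annotation, 734 were called higher and 1051 lower. Over all genes tested, 17.1% were higher and 23.7% lower in wild-type jejunum than in control ileum. Between the ilea, 205 clusters with several symbols were called higher and 154 lower in control than in wild-type ileum. For clusters with no annotation these counts were 1150 and 628. The differences of these clusters from control ileum are thus not shown to be regional.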
